A study of Mus musculus with 4 samples.

Results

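The 9 genes Cdh1, Cdh2, Vim, Zeb1, Zeb2, Snai1, Snai2, Twist1 and Fn1, the classical readouts and transcription factors of epithelial–mesenchymal transition (EMT) and of phenotype switching in melanoma, were taken by symbol from a table of 24527 genes, and all 9 were present. They were read in 4 libraries of the mouse melanoma line B16F10, 1 library per condition. The 2D monoculture (hereafter monoculture) held B16F10 cells grown alone on plastic. The 2D co-culture (hereafter co-culture) and the spheroid held B16F10 cells sorted away from NIH/3T3, an immortalized mouse embryonic fibroblast line, after growth as a mixed monolayer or as a mixed hanging-drop aggregate. The methods of the study describe the cultured melanoma cells as a B16F10 line carrying a green fluorescent protein, sorted as live green cells, and the fibroblasts as red fluorescent. The tumor library came from B16F10 cells injected under the skin of both flanks of female C57BL/6 mice aged 1 year. The design text calls these tumor cells sorted, whereas the name of the library is that of snap-frozen tumor, with tissue as the source. All samples carry the wild-type label, and the age of the cultures at RNA extraction was not given in the sources used here.

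With 1 library per condition, the differences below lack any replicate check and are given without p-values. Levels are CPM, the reads of a gene scaled to a library of 1e+06 reads with a composition factor (TMM). Bracketed intervals are 95% intervals that cover counting error only. Totals ranged from 118896900 to 150028663 reads, so 3 reads, the limit that a count of 0 allows, equalled 0.0185 to 0.0262 CPM. Of the 9 genes, 8 had a mean of at least 1 CPM over the libraries and 4 (Cdh2, Vim, Zeb2 and Fn1) a mean of at least 10 CPM. Cdh1 was the gene under 1 CPM. The 8 melanocyte markers, among them Tyrp1 and Pmel, summed to between 11420 CPM in spheroids and 20122 CPM in the tumor, and none was at 0 in any library. Markers of other cells moved between libraries as well. The 11 fibroblast markers summed to 19.8 CPM in monoculture, 40.8 CPM in spheroids, 816 CPM in co-culture and 3312 CPM in the tumor, with none at 0. The 10 myeloid markers summed to 1964 CPM in the tumor and to between 11.04 and 30.5 CPM in the cultures. The 5 skeletal muscle markers summed to 4599 CPM in the tumor and to between 3.28 and 12.4 CPM in the cultures. In such bulk samples, fewer cells of a type and less RNA per cell cannot be told apart.

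In EMT, cells exchange E-cadherin (Cdh1) for N-cadherin (Cdh2), build a cytoskeleton of vimentin (Vim) and secrete fibronectin (Fn1). The zinc finger proteins Snai1, Snai2, Zeb1 and Zeb2 and the basic helix-loop-helix protein Twist1 drive the change, in part by binding E-boxes and repressing Cdh1. Melanocytes are of neural crest origin and use the same factors in another way: ZEB2 and SNAI2 accompany the differentiated state, whereas ZEB1 and TWIST1 accompany the dedifferentiated, invasive state.

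The transcription factors Snai1 and Twist1 showed the widest contrast between the cultures. Both were close to absent from B16F10 cells grown alone or as spheroids, and both had at least 350 reads in co-culture and in the tumor. Snai1 (mm10 chromosome 2, 167538195 to 167542814, plus strand) encodes Snail, a repressor that acts early in EMT. It had 8 reads or 0.0562 CPM in monoculture, 22 reads or 0.162 CPM in spheroids, 552 reads or 4.82 CPM in co-culture, and 818 reads or 5.04 CPM in the tumor. The co-culture and the tumor thus lay far above the monoculture and the spheroid, and their own counting intervals overlapped. The log2 ratio to the monoculture was 6.42 (5.44 to 7.64) in co-culture, 6.49 (5.50 to 7.70) in the tumor and 1.52 (0.30 to 2.90) in spheroids. With 1 CPM added, the spheroid value was 0.14, and within classes of GC content and length it was -0.58. The counting intervals of the levels in monoculture and spheroids overlapped.

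Twist1 (chromosome 12, 33957671 to 33959829, plus strand) encodes a mesoderm and neural crest factor. It had 0 reads in monoculture, which allows up to 0.0211 CPM. The spheroid had 9 reads or 0.0661 CPM, the co-culture 350 reads or 3.06 CPM and the tumor 814 reads or 5.01 CPM. With 1 CPM added, the log2 ratio of spheroid to monoculture was 0.09, and within classes of GC content and length it was -0.62. Against the limit of 3 reads in monoculture, Twist1 was 145-fold higher in co-culture and 238-fold higher in the tumor. These folds leave out the counting error of the co-culture and tumor levels. From the co-culture to the spheroid, both grown with NIH/3T3, the log2 ratio was -5.53 (-6.67 to -4.59) for Twist1 and -4.90 (-5.59 to -4.29) for Snai1.

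Because Snai1 and Twist1 lay high and low in the same libraries, their promoters are shown side by side, from RefSeq on the build GRCm38.p6. RefSeq windows were matched for 4 of the 9 genes (Vim, Zeb2, Snai1 and Twist1). Each line gives the 250 bases before the start of transcription, 5′ to 3′ on the plus strand. Capitals mark the E-box CAGGTG, the CCAAT box and the TATA-like letters TATAA, each searched on both strands.
Snai1, chr2:167537945-167538194: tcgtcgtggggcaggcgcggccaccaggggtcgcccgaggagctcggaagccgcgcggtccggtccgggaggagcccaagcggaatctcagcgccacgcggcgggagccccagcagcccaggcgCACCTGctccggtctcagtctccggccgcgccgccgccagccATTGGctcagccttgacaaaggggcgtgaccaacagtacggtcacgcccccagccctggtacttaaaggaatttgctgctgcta
Twist1, chr12:33957421-33957670: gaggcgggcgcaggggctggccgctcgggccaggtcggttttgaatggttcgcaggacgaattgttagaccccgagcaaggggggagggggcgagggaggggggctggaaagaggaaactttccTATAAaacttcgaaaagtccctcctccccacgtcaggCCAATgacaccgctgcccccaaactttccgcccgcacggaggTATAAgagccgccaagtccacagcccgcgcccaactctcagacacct
Both windows held a CCAAT box on 1 strand, beginning 84 bases before the start in Snai1 and 89 bases before it in Twist1. Snai1 alone of the pair held the E-box, on the minus strand 126 bases before the start, and Twist1 alone held TATAA, 126 and 47 bases before the start. Of 32851 RefSeq windows of this length, 33.8% held the CCAAT box, 17.2% the E-box and 22.8% TATAA, so none of these is rare. A match is a description of letters and was not tied to binding by any measurement here.

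Zeb1 was highest in the tumor and under 1 CPM in monoculture and spheroids, whereas Zeb2 was well counted in every library. Both encode large zinc finger and homeodomain repressors. Zeb1 (chromosome 18, 5591860 to 5775467, plus strand) had 43 reads or 0.302 CPM in monoculture, 16 reads or 0.117 CPM in spheroids, 182 reads or 1.59 CPM in co-culture and 3260 reads or 20.1 CPM in the tumor. The counting intervals of the 4 levels did not overlap. The log2 ratio to the monoculture was 6.06 (5.62 to 6.53) in the tumor, 2.40 (1.91 to 2.91) in co-culture and -1.36 (-2.29 to -0.50) in spheroids. With 1 CPM added, the spheroid value was -0.22, and 0.26 within the GC and length classes.

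Zeb2 (chromosome 2, 44983632 to 45117395, minus strand) had 88.7 CPM in monoculture, 44.99 CPM in co-culture, 26.0 CPM in spheroids and 105 CPM in the tumor. It was lowest in spheroids, 3.41-fold below the monoculture and 4.04-fold below the tumor. Its log2 ratio was -1.77 (-1.82 to -1.72) for spheroid to monoculture and 0.24 (0.21 to 0.28) for tumor to monoculture, the latter -0.09 within the GC and length classes with 1 CPM added. The transcript of Zeb2 has a GC content of 40.6%, the lowest of the 9 genes, and with 1 CPM added and each ratio centred within classes of GC content and length, the log2 ratio of the spheroid was -0.75 to the monoculture and -0.51 to the tumor, under 2-fold. Zeb2os, an antisense gene that shares 653 exon bases with Zeb2, had 285 reads in monoculture, 252 in co-culture, 349 in spheroids and 708 in the tumor. Whether reads were counted by strand was not given in the sources used here, so reads of this stretch cannot be assigned to either gene with certainty.

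Snai2 moved least of the 9 genes. It encodes Slug, which is needed for the migration and survival of melanocyte precursors. Snai2 (chromosome 16, 14705852 to 14709385, plus strand) had 3.61 CPM in monoculture, 5.62 CPM in co-culture, 2.64 CPM in spheroids and 3.97 CPM in the tumor. The highest and the lowest library differed 2.13-fold, and the counting intervals of the monoculture and the tumor overlapped, with a log2 ratio of 0.13 (-0.04 to 0.30).

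**Figure D1:**
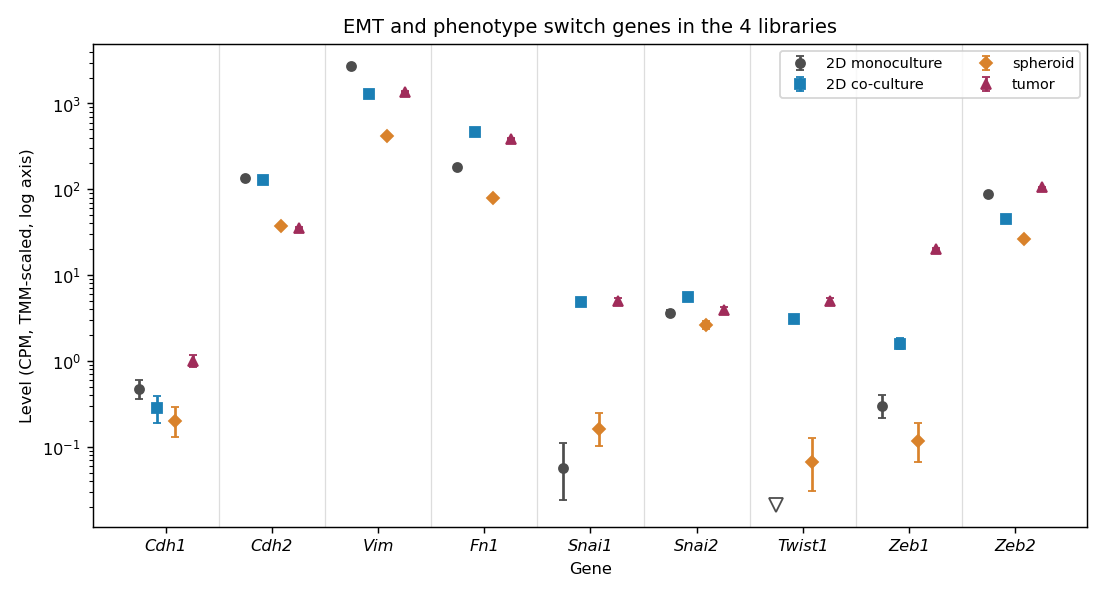
Level of each of the 9 genes in the 4 libraries, in CPM on a log axis. Points are single libraries, bars are 95% counting intervals (smaller than the point for high genes), and the open triangle marks Twist1 at 0 reads, drawn at the limit of 0.0211 CPM. Snai1 and Twist1 are high in co-culture and the tumor and low in the other libraries, and the spheroid has the lowest level of Vim, Fn1, Cdh1, Snai2, Zeb1 and Zeb2.

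Between the cadherins, N-cadherin was the abundant one in all 4 libraries. Cdh2 (chromosome 18, 16588877 to 16809246, minus strand) had 136 CPM in monoculture and 130.1 CPM in co-culture, against 37.8 CPM in spheroids and 35.2 CPM in the tumor. The libraries thus formed a high pair of 2D cultures and a low pair of spheroid and tumor. Log2 ratios to the monoculture were -0.06 (-0.09 to -0.03) in co-culture, -1.84 (-1.89 to -1.80) in spheroids and -1.95 (-1.99 to -1.90) in the tumor. Between spheroid and tumor, the log2 ratio of Cdh2 was 0.10 (0.05 to 0.16). With 1 CPM added, it was -0.25 with total-count scaling and 0.37 within the GC and length classes.

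Cdh1 (chromosome 8, 106603351 to 106670246, plus strand) stayed at the edge of detection. It had 67 reads or 0.47 CPM in monoculture, 32 reads or 0.279 CPM in co-culture, 27 reads or 0.198 CPM in spheroids and 164 reads or 1.01 CPM in the tumor. The tumor was highest, at a log2 ratio of 1.10 (0.68 to 1.54) to the monoculture, and the counting intervals of the co-culture and the spheroid overlapped. Beside it, 6 keratinocyte markers summed to 1.95 CPM in the tumor, 0.873 CPM in co-culture, 0.0140 CPM in monoculture and 0.00734 CPM in spheroids, and between 2 and 5 of them were at 0 in each library. The part of such cells in the Cdh1 level was not tested.

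Vim encodes the main intermediate filament of mesenchymal cells, and it was the most abundant of the 9 genes per transcript length in every library. Vim (chromosome 2, 13573927 to 13582826, plus strand) had 2731 CPM in monoculture, 1281 CPM in co-culture, 423 CPM in spheroids and 1379 CPM in the tumor. It was highest in cells grown alone and lowest in spheroids, with the co-culture and the tumor close together between them. Its log2 ratio to the monoculture was -2.69 (-2.70 to -2.68) in spheroids, a 6.46-fold lower level, and only 0.786% of the 12728 genes tested had a lower ratio in that comparison.

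Fn1 encodes fibronectin, a matrix glycoprotein that fibroblasts secrete in quantity. Fn1 (chromosome 1, 71585520 to 71653200, minus strand) had 184 CPM in monoculture, 465 CPM in co-culture, 80.001 CPM in spheroids and 388 CPM in the tumor. The co-culture and the tumor were above the monoculture, at log2 ratios of 1.34 (1.31 to 1.36) and 1.08 (1.06 to 1.10), and the spheroid was below it at -1.20 (-1.23 to -1.17). With 1 CPM added and within the GC and length classes, these values were 1.52 in co-culture, 2.06 in the tumor and -0.81 in spheroids, so that the order of co-culture and tumor turned. From the co-culture to the spheroid, Fn1 was 5.81-fold lower. Apol7d, an antisense gene that shares 292 exon bases with Fn1, had between 37 and 217 reads.

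Ratios of 2 genes inside 1 library do not depend on the scaling between libraries. There were 288 reads of Cdh2 per read of Cdh1 (227 to 372) in monoculture, 465 (330 to 681) in co-culture, 191 (131 to 289) in spheroids and 34.8 (29.8 to 40.9) in the tumor. All 4 libraries were on the N-cadherin side, the tumor least so. Zeb2 exceeded Zeb1 by 294 reads to 1 (218 to 406) in monoculture and 222 to 1 (136 to 388) in spheroids, whose intervals overlapped. In the co-culture it was 28.3 to 1 (24.4 to 33.0), and in the tumor 5.23 to 1 (5.04 to 5.44). Snai1 had 0.0155 reads per read of Snai2 (0.00667 to 0.0308) in monoculture and 0.0613 (0.0379 to 0.0942) in spheroids. This ratio was 0.858 (0.765 to 0.963) in co-culture and 1.27 (1.14 to 1.41) in the tumor. Per transcript length, the Snai1 level was 1.07 times that of Snai2 in co-culture and 1.58 times in the tumor.

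**Figure D2:**
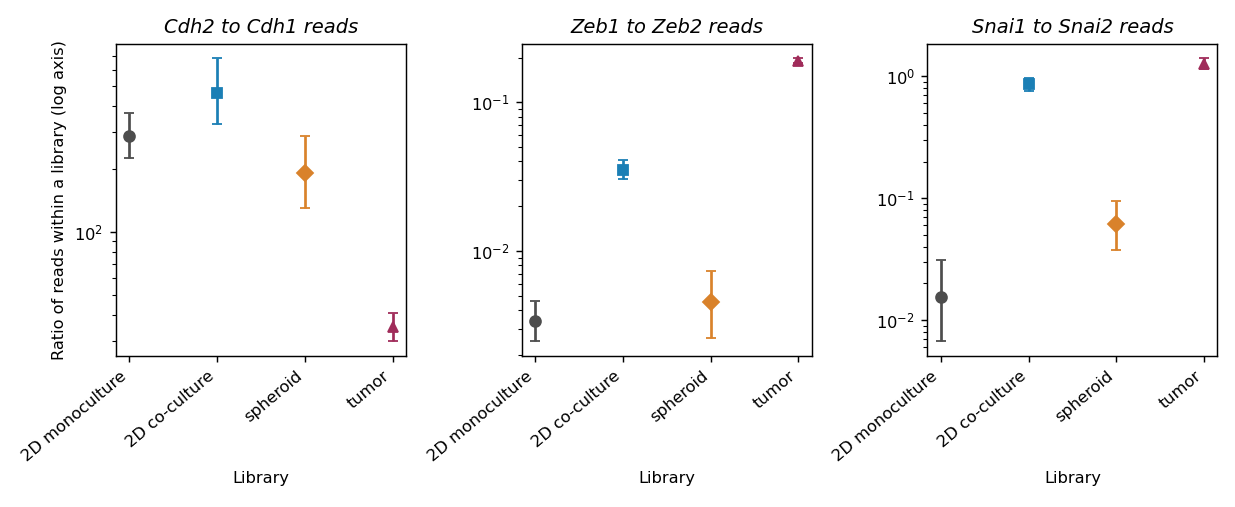
Ratio of the reads of 2 genes within each library, on log axes, for Cdh2 to Cdh1, Zeb1 to Zeb2 and Snai1 to Snai2. Points are single libraries and bars 95% counting intervals. The Cdh2 to Cdh1 ratio is lowest in the tumor (34.8), and the Zeb1 and Snai1 shares are highest there, with the co-culture next.

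To count differences, 1 CPM was added to every level, and a gene was taken as past the threshold when the log2 ratio of the sums was over 1 in size (2-fold). Against the monoculture, 4 of the 9 genes were past 2-fold lower in spheroids (Cdh2, Vim, Zeb2 and Fn1) and 0 were past it higher. Of the 12728 genes that averaged 1 CPM or more, 17.9% were past 2-fold lower and 11.2% higher in that comparison, 29.1% in either direction. With 1 CPM added, a gene under 1 CPM in monoculture cannot be past 2-fold lower, which held for Cdh1, Zeb1, Snai1 and Twist1. With no pseudocount, 6 of the 9 were lower in spheroids, with Cdh1 and Zeb1 entering, and 2 higher (Snai1 and Twist1). The shares of all genes were then 21.5% lower and 16.4% higher. With 1 CPM added and classes of GC content and length removed, the 4 lower genes became 2, Cdh2 at -1.47 and Vim at -2.15, while Fn1 was -0.81. In that setting, 11.6% of all genes were past 2-fold lower. In the co-culture, 3 of the 9 genes were past 2-fold higher (Snai1, Twist1 and Fn1), against 3.79% of all genes, and 1 was past it lower (Vim), against 9.51%, with 13.3% of all genes past it in either direction. The value for Vim, -1.09, fell just under 2-fold with upper quartile scaling, at -0.97, and Zeb1 at 0.99 lay just inside. Zeb1 was 1.02 at the highest of the scalings and 1.25 within the GC and length classes, which makes 4 higher genes. Within those classes, 4.1% of all genes were higher. In the tumor, 4 of the 9 genes were past 2-fold higher (Zeb1, Snai1, Twist1 and Fn1), against 14.8% of all genes, and 1 was lower (Cdh2), against 18.2%, with 33.1% in either direction. These 3 comparisons share the monoculture library.

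The spheroid was next set beside the co-culture, in which the same cell lines grew in a flat layer before sorting, and beside the tumor. Compared with the co-culture, 6 of the 9 genes were past 2-fold lower in spheroids (Cdh2, Vim, Zeb1, Snai1, Twist1 and Fn1), against 8.46% of all genes. None, 0, were past it higher, against 9.54%. Cdh1, under 1 CPM in co-culture, could not be past 2-fold lower with 1 CPM added. Within the GC and length classes 5 were lower, with Zeb1 at -0.97, against 6.75% of all genes. Compared with the tumor, 6 genes were past 2-fold lower as well (Vim, Zeb1, Zeb2, Snai1, Twist1 and Fn1), against 27.6%, and 0 were past it higher, against 26.8%, with 54.4% in either direction. Within the GC and length classes the count was also 6, against 22% of all genes, but Zeb2 at -0.51 left it and Cdh1 at -1.26 entered. Both counts rest on the same spheroid library. The co-culture and the tumor differed past 2-fold in 3 of the 9 genes, against 39.7% of all genes. Cdh2 was higher in co-culture, at 1.86, where 18.8% of all genes were past 2-fold higher. Zeb1, at -3.03, and Zeb2, at -1.21, were lower, as were 20.9% of all genes. Within the GC and length classes, the lower genes became 3, with Zeb2 at -0.13 and so no longer past 2-fold, and with Twist1 at -1.40 and Cdh1 at -1.02 entering. In that setting, 19.2% of all genes were lower.

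**Figure D3:**
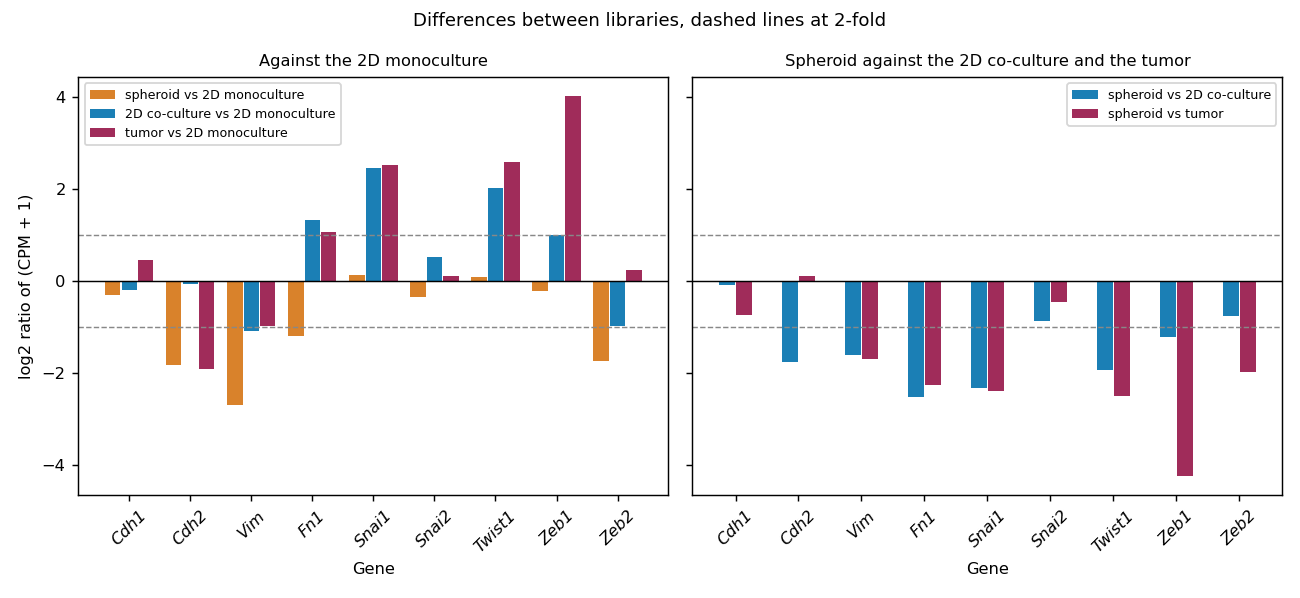
Log2 ratio of CPM with 1 CPM added, for each of the 9 genes, of the spheroid, co-culture and tumor to the monoculture (left) and of the spheroid to the co-culture and the tumor (right). Bars are single differences between libraries without replicates, and dashed lines mark 2-fold. On the right, no gene is past 2-fold higher in spheroids, and 6 are past 2-fold lower in each comparison.

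Fibroblast genes were high in the same libraries as Snai1, Twist1 and Fn1. Of the 11 fibroblast markers, 10 were past 2-fold higher in the tumor than in monoculture, 6 in co-culture and 4 in spheroids. The shares of all genes past it higher were 14.8%, 3.79% and 11.2%. Col1a2, a collagen I chain, had 2.97 CPM in monoculture, 4.05 CPM in spheroids, 514 CPM in co-culture and 622 CPM in the tumor. As a share of the level in the tumor library, the co-culture had 95.7% for Snai1, 61.0% for Twist1 and 120% for Fn1 beside 82.7% for Col1a2, 123% for Col6a1, 11.8% for Col1a1 and 4.06% for Col3a1. The median of the fibroblast list was 11.8%. The log2 ratio of co-culture to tumor with 1 CPM added moved within the GC and length classes from -0.05 to -0.89 for Snai1, from -0.57 to -1.40 for Twist1 and from 0.26 to -0.42 for Fn1, and Fn1 was -0.01 with total counts. Zeb1 had 7.92% there. In the spheroid, the shares were 3.21% for Snai1, 1.32% for Twist1 and 0.585% for Zeb1, beside a median of 0.582% for the fibroblast list, 0.13% for the 10 myeloid genes and 0.13% for 5 skeletal muscle genes. The rest of the 9 genes were higher: Cdh1 19.6%, Fn1 20.6%, Zeb2 24.8%, Vim 30.7%, Snai2 66.5% and Cdh2 107%. The median of the melanocyte list was 57.9%. The part of fibroblast or host RNA in the levels of the 9 genes was not tested. In the tumor, Zeb1, Snai1, Twist1 and Fn1 were high together with fibroblast, myeloid and most endothelial markers. Of the 8 endothelial markers, 7 were past 2-fold higher than in monoculture. Eng, the endothelial marker of highest mean, was past 2-fold lower, at 92.4 CPM in the tumor against 285 CPM in monoculture. Cdh2 and Vim were also lower in the tumor than in monoculture.

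**Figure D4:**
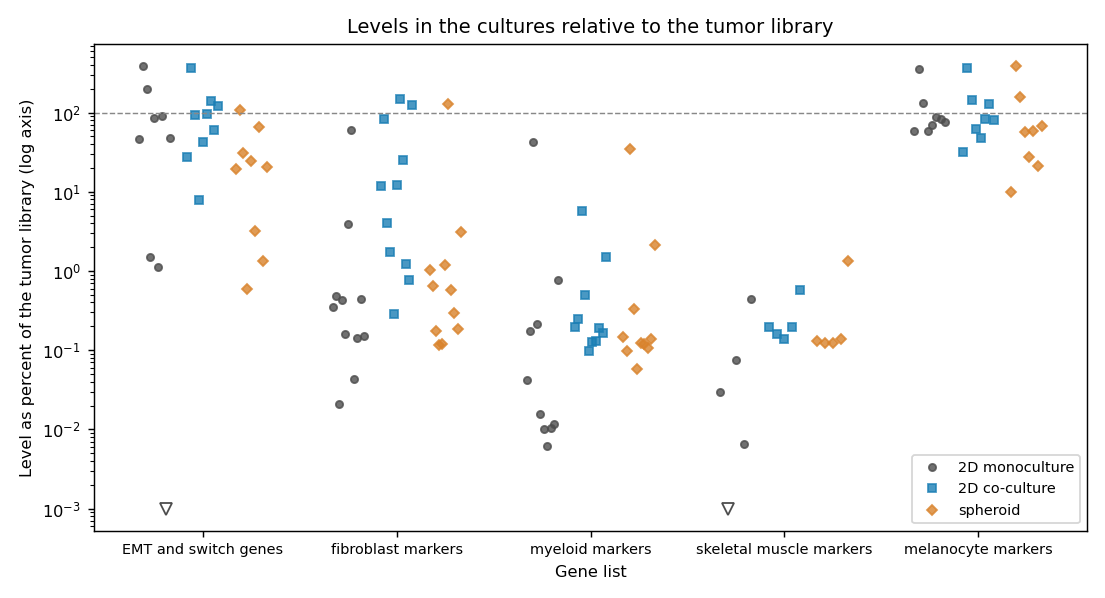
Level of each gene in the 3 cultures as a percent of its level in the tumor library, on a log axis, for the 9 genes and for marker lists of fibroblasts, myeloid cells, skeletal muscle and melanocytes. Points are genes, the dashed line marks 100%, and open triangles are genes at 0 reads. Fibroblast markers of the co-culture range from under 1% to over 100%, those of the spheroid lie mostly near 1% or below, and melanocyte markers lie between 9.93% and 381%.

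The other genes of the pathway were read as whole lists, each described by its counts. These counts include genes that averaged under 1 CPM, which the shares of all genes leave out. Among 10 further EMT transcription factors, 2 were past 2-fold higher in co-culture than in monoculture, Twist2 and Prrx1, and 1 in spheroids, Foxc2. The shares of all genes past it higher were 3.79% in co-culture and 11.2% in spheroids. Prrx1, a mesenchymal homeobox factor, had 0.0632 CPM in monoculture, 0.382 CPM in spheroids, 22.7 CPM in co-culture and 24.9 CPM in the tumor, the same order of libraries as Snai1 and Twist1. Tcf3, which encodes the E-box protein E2A, had the highest mean of this list, with 93.8 CPM in monoculture, 145 CPM in co-culture, 162 CPM in spheroids and 44.6 CPM in the tumor. In the tumor, 3 factors of the list were higher than in monoculture (Twist2, Prrx1 and Tcf4) and 2 lower (Tcf3 and Sox4). Among all genes, 14.8% were higher and 18.2% lower there. The median log2 ratio of the list to the monoculture was 0.45 in co-culture, 0.27 in spheroids and 0.12 in the tumor, beside 0.01, 0.05 and -0.14 for all genes tested.

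Epithelial genes were near absent. None of 8 epithelial splicing and identity factors, such as Esrp1 and Grhl2, reached a mean of 1 CPM. Of 16 junction and keratin genes, 2 did, the tight junction scaffolds Tjp1 and Tjp3. Tjp3 had 37.1 CPM in spheroids and between 2.77 and 4.75 CPM elsewhere, whereas Tjp1 was lowest in spheroids, at 17.2 CPM against 74.0 CPM in monoculture. Krt18 and Krt19, keratins of simple epithelia, were the genes of this list past 2-fold higher in the tumor, at 1.03 and 1.60 CPM there. They were 2 of the 16, where 14.8% of all genes were higher. The 6 catenins join cadherins to actin. Of these, Ctnnb1, Ctnna1 and Ctnnd1 were past 2-fold lower in spheroids than in monoculture, and none was past it in the tumor. The shares of all genes were 17.9% lower in spheroids and 33.1% in either direction in the tumor. In the tumor, Ctnnd1 lay just inside at -0.99, with 170 CPM there, 139 CPM in spheroids and 339 CPM in monoculture. Ctnna2 and Ctnnd2, under 1 CPM in monoculture, could not be past 2-fold lower with 1 CPM added. Ctnna1, the α-catenin of most tissues, had 220.4 CPM in monoculture, 83.3 CPM in co-culture, 35.8 CPM in spheroids and 183 CPM in the tumor. Jup, the catenin shared with desmosomes, was highest in spheroids, at 36.9 CPM against 16.4 to 21.8 CPM elsewhere.

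Fibronectin receptors moved in both directions in spheroids. Itgb3, the β subunit of the vitronectin and fibronectin receptor, had 458 CPM in spheroids, 117 CPM in monoculture, 62.8 CPM in co-culture and 33.1 CPM in the tumor. Itga5, the α subunit of the main fibronectin receptor, had 461 CPM in spheroids and 239 CPM in monoculture, under 2-fold. Its partner Itgb1 was 189.6 CPM in spheroids and 546 CPM in monoculture. Of the 10 genes of this list, 3 were past 2-fold higher (Itgb3, Sdc4 and Fbln1) and 2 lower (Itgb1 and Itga8) in spheroids than in monoculture, with a median log2 ratio of -0.10. Among all genes, 11.2% were higher and 17.9% lower in that comparison.

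Genes of the invasive and the proliferative melanoma state were compared because the ZEB and SNAI factors are tied to these states. Of 14 measured genes of the invasive state, 6 were past 2-fold higher in co-culture than in monoculture and 0 lower, 2 higher (Axl and Cyr61) and 2 lower (Ngfr and Thbs1) in spheroids, and 9 higher and 2 lower (Tead4 and Cyr61) in the tumor. Only 9 of the 14 averaged 1 CPM or more, as the genes of the shares below did. The counts include genes under that mean: Ror2 and Fosl1 in co-culture, Ngfr in spheroids, and Wnt5a and Ror2 in the tumor. Of all genes tested, 3.79% were past 2-fold higher in co-culture, 11.2% in spheroids and 14.8% in the tumor. The shares past 2-fold lower were 9.51%, 17.9% and 18.2%. The fibroblast markers, at 816 CPM in co-culture, 40.8 CPM in spheroids and 3312 CPM in the tumor, were high in the same libraries, and their part in these counts was not tested. Axl, a receptor tyrosine kinase of the invasive state, was higher in all 3, with 18.2 CPM in monoculture, 56.0 CPM in co-culture, 74.0 CPM in spheroids and 65.3 CPM in the tumor. Thbs1, a matricellular protein that fibroblasts also make, had 12.1 CPM in monoculture, 33.9 CPM in co-culture, 1.76 CPM in spheroids and 136 CPM in the tumor. Thbs1, like Fn1, was lowest in spheroids and higher in co-culture and the tumor than in monoculture.

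Of 12 genes of the proliferative state, 3 were past 2-fold lower in spheroids (Mitf, Tyrp1 and Mlana), 0 were past 2-fold in co-culture, and in the tumor 2 were higher (Trpm1 and Ednrb) and 1 lower (Sox10). Over all genes tested, 17.9% were past 2-fold lower in spheroids, and 13.3% were past it in either direction in co-culture. In the tumor, 14.8% were higher and 18.2% lower. Mitf, the master regulator of melanocytes, had 416 CPM in monoculture, 223 CPM in co-culture, 70.3 CPM in spheroids and 708 CPM in the tumor. The order of the 4 libraries for Mitf was that for Zeb2. Sox10, the neural crest factor upstream of Mitf, had 834 CPM in monoculture, 871 CPM in co-culture, 902 CPM in spheroids and 237 CPM in the tumor.

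**Figure D5:**
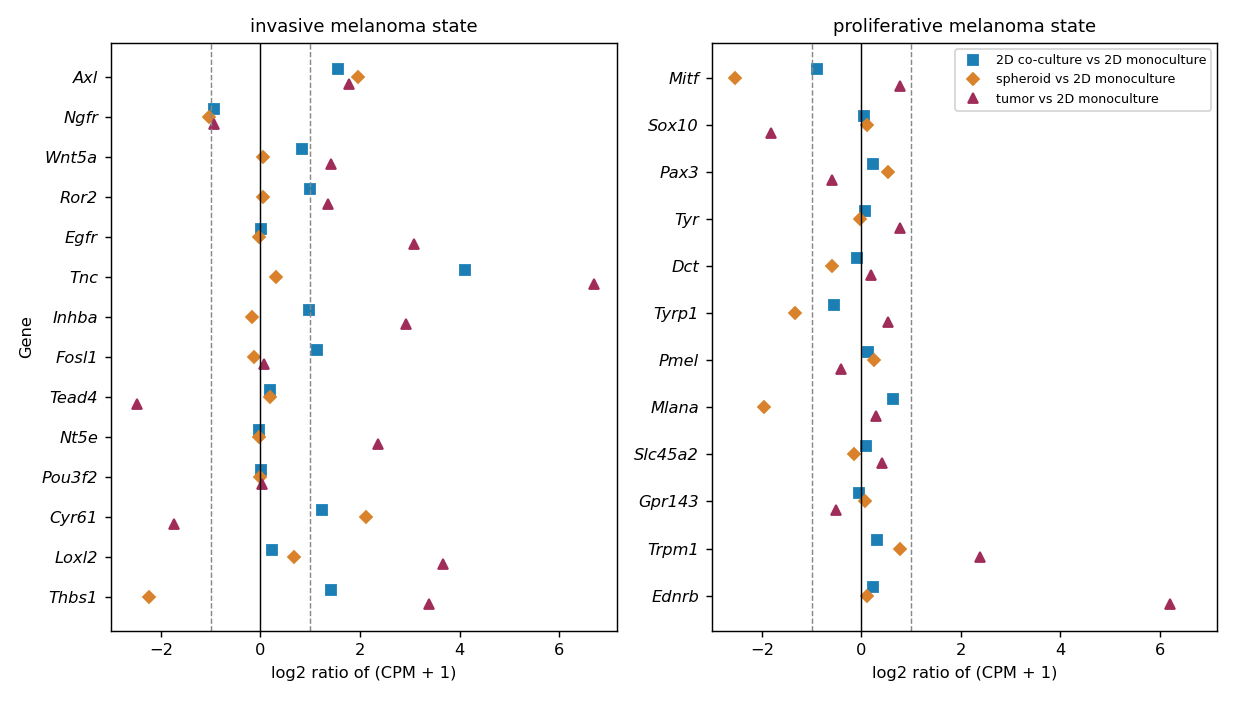
Log2 ratio of CPM with 1 CPM added, of the co-culture, spheroid and tumor to the monoculture, for 14 genes of the invasive melanoma state (left) and 12 genes of the proliferative state (right). Points are single differences between libraries and dashed lines mark 2-fold. Axl is past 2-fold higher in all 3, Thbs1 is lower in spheroids and higher in co-culture and tumor, and Mitf is lowest in spheroids.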

How the data were processed

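The deposited file is 1 table of read counts for refGene symbols, whole numbers without normalization, with 1 column per library. The submitters' processing notes name Trimmomatic, STAR and featureCounts and the build mm10. Versions and settings were not given in the sources used here. Columns were matched to conditions by their names.

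CPM were computed with TMM factors of edgeR 4.0.16 in R 4.3.3, and other values in Python 3.11.15 with scipy 1.17.1, pandas 2.3.3 and numpy 2.4.6. Intervals of levels are Clopper-Pearson intervals, and those of ratios are exact binomial intervals of the split of reads between both libraries, rescaled. Log2 ratios with an interval have nothing added, and counts past 2-fold use 1 CPM added. The calculation of the 2-fold counts was tested on simulated data, which held counting error only and no variation between samples of a condition. NOISeq and GFOLD, which the study used, were not run. Positions, transcript lengths and GC content come from GENCODE M21 on GRCm38, the assembly called mm10, with the longest transcript of each gene. DESeq2 1.42.0 size factors, total counts, upper quartiles and TMM factors of each pair were alternatives.

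The genes and lists were chosen with earlier results of these data known. In each list, the gene of highest mean and those of highest and lowest ratio of spheroid to monoculture were to be named. Other list genes, such as Prrx1, Itga5, Axl, Sox10 and those that make up a small count, were chosen after their values were seen. In the list of the invasive state, 1 gene is not reported here, and its counts leave that gene out.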

Additional observations from a re-analysis of the deposited data

How the results depend on the processing

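No paired analysis was possible because there was 1 library per condition, and for the same reason no library could be left out. Of 54 ratios of the 9 genes over the 6 comparisons, 28 were past 2-fold. All 28 kept their direction, and 22 stayed past 2-fold, with the 4 other scalings, a pseudocount of 0.1 CPM, no pseudocount and the GC and length classes. Under the scalings alone, 27 stayed past 2-fold.

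Lower genes of the co-culture against the monoculture moved from 1 to 0 with upper quartile factors and at 3-fold, and to 2 at 1.5-fold. Lower genes of the tumor moved from 1 to 2 at 1.5-fold, and those of the co-culture against the tumor from 2 to 1 at 3-fold. With no pseudocount, higher genes of the spheroid against the monoculture moved from 0 to 2, Snai1 and Twist1. Twist1 had its 0 reads in monoculture set to 0.5. Lower genes of that comparison moved from 4 to 6 there, and from 4 to 2 with the GC and length classes. With a mean of at least 10 CPM, where 4 of the 9 genes remain, higher genes moved from 3 to 1 in co-culture and from 4 to 1 in the tumor, lower genes of the spheroid from 6 to 3 against the co-culture and from 6 to 3 against the tumor, and those of the co-culture against the tumor from 2 to 1. Where fewer genes enter, the filter sets the count, and elsewhere the cause was not tested.

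Total counts shifted log2 ratios by 0.24 for tumor to monoculture, -0.36 for spheroid to tumor and -0.27 for co-culture to tumor, and upper quartile factors shifted tumor to monoculture by 0.25. The share of all genes past 2-fold that was higher moved from 44.8% to 59.9% and 60.5% for the tumor, and with total counts from 49.3% to 36.7% for the spheroid against the tumor and from 47.4% to 32.6% for the co-culture against the tumor. For the co-culture against the monoculture it moved from 28.5% to 39.0% with upper quartile factors. Within GC and length classes it was 72.5% for the tumor against the monoculture and 31.1% for the co-culture against the tumor. With a mean of at least 10 CPM, the share moved the other way in these comparisons, to 24.7% and 62.2%. At 3-fold it was 64.9% and 29.3%. Depth limits Cdh1, and Snai1, Twist1 and Zeb1 in monoculture and spheroid, where each had at most 67 reads.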

Other observations

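Genes with the profile most like a member over the 4 libraries were sought among 9587 other genes averaging 10 CPM or more, for the 4 members at that level, by the root mean square difference of centred log2(CPM + 1) values. With 4 libraries such likeness is a description of these samples. Nearest to Vim were Lmo7 (0.05), Deptor (0.06) and Pcnt (0.07). Nearest to Zeb2 were Phf14 (0.04), Usp33 (0.05) and Dpp8 (0.05), and nearest to Cdh2 were Acpp (0.09), Nav2 (0.17) and Dnmt1 (0.20). Nearest to Fn1 were 2810417H13Rik (0.18), Rad51ap1 (0.23) and Tyms (0.25).

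A list of intermediate filament genes other than Vim, with Plec, which encodes the filament linker plectin, split in spheroids. Of these 9 genes, 3 were past 2-fold higher than in monoculture (Des, Gfap and Prph) and 4 lower (Nes, Synm, Lmnb1 and Plec). Among all genes, 11.2% were higher and 17.9% lower. Nes, which encodes the filament nestin of neural crest and stem cells, had 311 CPM in monoculture, 119.8 CPM in co-culture, 36.5 CPM in spheroids and 41.9 CPM in the tumor. Prph, peripherin, had 1.48 CPM in monoculture, 1.75 CPM in co-culture, 5.31 CPM in spheroids and 27.4 CPM in the tumor. Of 8 other cadherins, 5 were past 2-fold higher in the tumor than in monoculture, among them the endothelial Cdh5, with 64.2 CPM in the tumor and between 0.0873 and 0.103 CPM in the cultures. The share of all genes past it higher in the tumor was 14.8%. Cdh19, a cadherin of neural crest lineages and the one of highest mean in this list, had 42.8 CPM in monoculture, 14.4 CPM in co-culture, 11.008 CPM in spheroids and 48.8 CPM in the tumor. The part of host cells in the tumor values was not tested.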
